A study of Glycine max with 10 samples.

Results

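The 3 genes described here encode ACC synthase (ACS), and were chosen by identifier as the ACS genes of the study (Glyma07g15380, Glyma09g28000 and Glyma16g32860). All 3 were found among the 54154 genes of the table, each with a single entry. RNA was sequenced from embryonic axes, the part of the soybean embryo that grows into root and shoot, of cultivar BRS 284. The 5 groups are axes of dry seeds and of seeds imbibed for 3 hours (3-HAI, hours after imbibition), 6 hours (6-HAI), 12 hours (12-HAI) or 24 hours (24-HAI), with 2 biological replicates each and 10 libraries in all. Seeds of every imbibed group took up water on soaked cotton at 28 °C under 12 hours of light a day, no hormone or inhibitor was given, and each replicate pooled the axes of many seeds. The question addressed is how transcription of these genes changed between successive time points of germination. Other ACS genes were not analysed here.

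Ethylene is made in plants from S-adenosyl-methionine. ACC synthase converts it to 1-aminocyclopropane 1-carboxylic acid (ACC), often the slow step of the route, and ACC oxidase (ACO) then turns ACC into ethylene. The gas binds receptors of the endoplasmic reticulum that otherwise keep the CTR1 kinase active, and so releases EIN2 and the EIN3 transcription factors. In seeds, ethylene is known to promote germination and to counter abscisic acid. ACC synthases are encoded by a gene family in plants, and the enzyme is also controlled through its stability, which RNA levels do not show.

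The values are FPKM, fragment numbers scaled for transcript length and for the number of mapped fragments, so that levels of different genes can be set side by side. The authors merged both replicates, leaving 1 value per gene and time point. No value therefore has an SD, no test was possible, and differences are given as ratios with no p-value and no check against the spread between replicates. The table gives no read count per gene, so no counting error can be attached to a value. Following the cutoffs in use for these data, a gene was taken as expressed at 1 FPKM or more and as highly transcribed above 10 FPKM, and 33358 genes were expressed at some time point. The sum of FPKM over all genes was highest in dry seeds and lowest at 12-HAI, so values at different time points are not on a fully common scale. As seed genes named by the study, the ABI3 regulators Glyma08g47240 and Glyma18g38490 had 62.1 and 78.8 FPKM in dry axes and 2.70 and 7.11 FPKM at 24-HAI. Markers that define the embryonic axis itself were not analysed here.

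Glyma07g15380 was the gene of the 3 with the widest range. It lies on the minus strand of chromosome 7, at chr7:15226152-15228398 in version 1.1 of the G. max genome, a span of 2247 bp. Its transcription measured in FPKM was 0.0278 (dry), 1.40 (3-HAI), 7.40 (6-HAI), 9.17 (12-HAI) and 19.4 (24-HAI). The value was thus higher at every successive time point, as in 6092 of the expressed genes (18.3%). It was below the limit of expression in dry seeds alone, and the 24-HAI value was the only one of the 15 values of these genes above 10 FPKM. After equal-total scaling the 12-HAI values of Glyma07g15380 (12.5 FPKM) and Glyma09g28000 (12.4 FPKM) also lay above 10 FPKM. In RNA of whole axes, a change in the number of cells that express a gene and a change in its RNA per cell cannot be told apart.

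Glyma09g28000 was expressed at all time points and, before any scaling, varied least. It lies on the plus strand at chr9:34960850-34964775 and spans 3926 bp. It had FPKM values of 5.39 (dry), 5.21 (3-HAI), 7.68 (6-HAI), 9.12 (12-HAI) and 6.04 (24-HAI). Its highest value, at 12-HAI, was 1.75 times its lowest, at 3-HAI. Over the expressed genes that were above 0 throughout, the median of this ratio was 3.97, so the gene was on the steady side of the unscaled table. After equal-total scaling its lowest value was that of dry seeds (3.86 FPKM) and its highest 12.4 FPKM at 12-HAI. Glyma16g32860 then ran from 1.97 FPKM (dry) to 4.57 FPKM (12-HAI), so Glyma09g28000 did not vary least under that scaling.

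Glyma16g32860 was the lowest of the 3 genes from 6-HAI onwards. It lies on the plus strand at chr16:35954754-35958517 and spans 3764 bp. It had FPKM values of 2.74 (dry), 5.12 (3-HAI), 3.51 (6-HAI), 3.35 (12-HAI) and 1.75 (24-HAI). Its highest value, at 3-HAI, exceeded its lowest, at 24-HAI, by a factor of 2.93. The 3 genes thus had their highest values at 3 different time points, although that of Glyma16g32860 moved to 12-HAI (4.57 FPKM, against 4.52 FPKM at 3-HAI) under equal-total scaling. Among expressed genes, 41.5% had their highest value at 24-HAI, 8.50% at 12-HAI and 20.1% at 3-HAI.

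**Figure D1:**
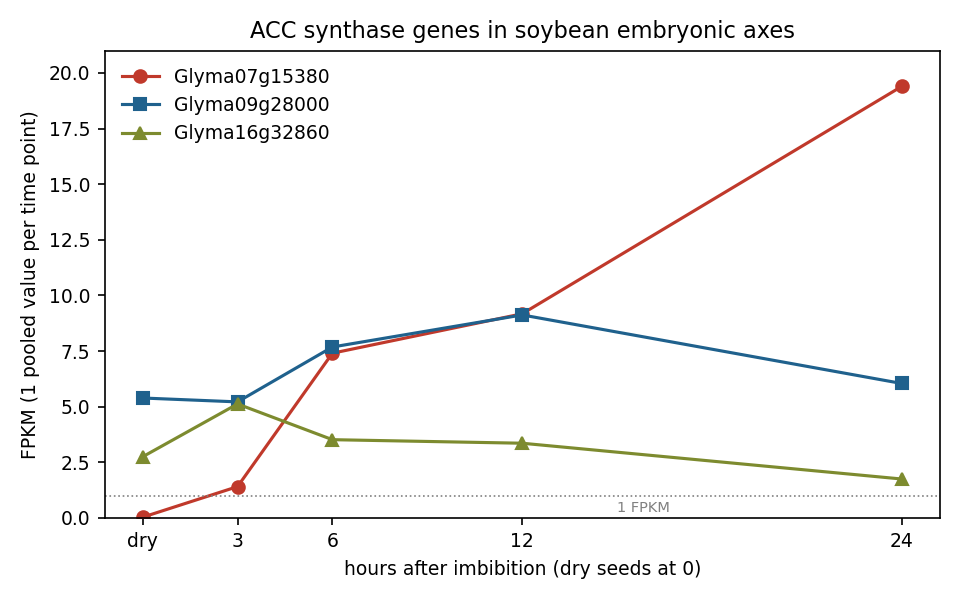
FPKM of the 3 ACC synthase genes (vertical axis) against hours after imbibition, 1 pooled value per time point with no error bars. Glyma07g15380 starts at 0.0278 FPKM and ends at 19.4 FPKM, while Glyma09g28000 stays between 5.21 and 9.12 FPKM and Glyma16g32860 between 1.75 and 5.12 FPKM.

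None of the 3 was confined to a time point. The specificity score used (1 minus the Jensen-Shannon distance between the log10(FPKM + 1) values and a profile at 1 time point alone, with 0.7 as the limit for preferential expression) reached 0.34 in Glyma07g15380 at 24-HAI, 0.24 in Glyma09g28000 at 12-HAI and 0.26 in Glyma16g32860 at 3-HAI. The median over expressed genes was 0.26, and 733 of them (2.20%) passed the limit.

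Which ACS gene was highest changed during germination. In dry seeds the order was Glyma09g28000, Glyma16g32860 and Glyma07g15380, with the first 1.96 times the second and the second 98.8 times the last (40.01 times after quantile scaling). At 3-HAI the order was the same, but Glyma09g28000 was only 1.02 times Glyma16g32860. At 6-HAI Glyma07g15380 stood second, with Glyma09g28000 1.04 times as high, and at 12-HAI it stood first by 1.01 times. Without replicate values these 3 near-equal pairs cannot be ranked. At 24-HAI Glyma07g15380 was 3.21 times Glyma09g28000 and 11.1 times Glyma16g32860, the second ratio being 23.8 after quantile scaling. Each of 3 other scalings (median ratio, quantile and equal totals) keeps the order within a time point by construction, so none tests it.

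Glyma09g28000 and Glyma16g32860 parted after 3-HAI. The ratio of the first to the second was 1.96 (dry), 1.02 (3-HAI), 2.19 (6-HAI), 2.72 (12-HAI) and 3.46 (24-HAI, 5.52 after quantile scaling). Together they had FPKM values of 8.13 (dry), 10.3 (3-HAI), 11.2 (6-HAI), 12.5 (12-HAI) and 7.79 (24-HAI). At 24-HAI this sum was 0.957 times its level in dry seeds, but 0.702, 0.579 and 1.66 times after median-ratio, quantile and equal-total scaling, so no direction can be given for it.

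The summed level of the 3 genes in FPKM was 8.16 (dry), 11.7 (3-HAI), 18.6 (6-HAI), 21.7 (12-HAI) and 27.2 (24-HAI). The last value was thus 3.33 times the first, and 2.44, 2.67 and 5.77 times after median-ratio, quantile and equal-total scaling. Glyma07g15380 made up 0.341% (dry), 12.0% (3-HAI), 39.8% (6-HAI), 42.4% (12-HAI) and 71.4% (24-HAI) of the sum. The share of Glyma09g28000 was 66.0% in dry seeds and 44.4%, 41.3%, 42.1% and 22.2% at the later time points. Glyma16g32860 held 33.6%, 43.6%, 18.9%, 15.5% and 6.42% in the same order. After quantile scaling the dry share of Glyma07g15380 was 0.943% and the 24-HAI share of Glyma16g32860 was 3.29%. The difference in the sum between 24-HAI and dry seeds, 19.0 FPKM, lay in Glyma07g15380, whose own difference was 19.4 FPKM, while the difference of the other genes together was -0.346 FPKM, a sign that turns with the scaling as their sum does.

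**Figure D2:**
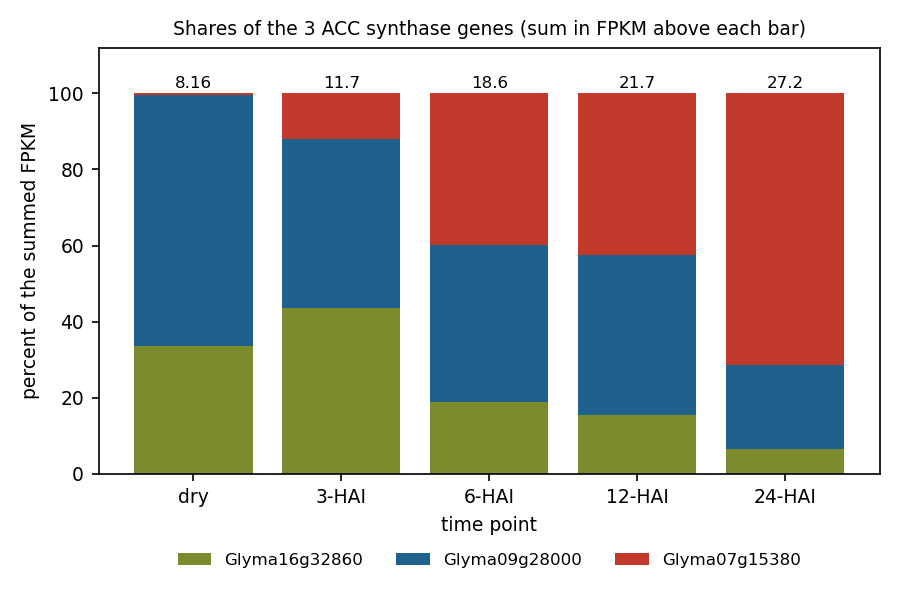
Percent of the summed FPKM of the 3 ACC synthase genes held by each gene (stacked bars, vertical axis) at each time point, with the sum in FPKM above the bar. The share of Glyma07g15380 is 0.341% in dry seeds and 71.4% at 24-HAI, over sums of 8.16 and 27.2 FPKM.

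Set among all expressed genes, the ACS genes were of middle rank for most of the series. Glyma07g15380 exceeded 5.73% (dry), 26.1% (3-HAI), 54.8% (6-HAI), 60.3% (12-HAI) and 81.3% (24-HAI) of the expressed genes. Glyma09g28000 stayed near the middle, above 48.0% of genes at 3-HAI and 24-HAI and above 60.2% at 12-HAI as its extremes. Glyma16g32860 exceeded 47.7% of them at 3-HAI, its best rank, and 16.2% at 24-HAI.

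The study compared successive time points with a test (Cuffdiff), and its differentially expressed genes had changes of at least 2.4-fold. Here, with no test, a gene was called higher or lower on a difference of 2.4-fold or more, provided that the larger of both values reached 1 FPKM. In each successive interval more genes were called higher in this way than the study reported, so the backgrounds below are not its counts. From dry seeds to 3-HAI, 1 of the 3 ACS genes was called higher, against a background of 11.5% of expressed genes, and 0 lower, against 1.32%. Between 3-HAI and 6-HAI the counts were 1 higher (background 6.01%) and 0 lower (0.698%). From 6-HAI to 12-HAI they were 0 higher (7.53%) and 0 lower (3.24%), and from 12-HAI to 24-HAI 0 higher (16.4%) and 0 lower (9.13%). Between the ends of the series, dry seeds and 24-HAI, 1 gene was called higher (38.5%) and 0 lower (21.7%). The gene called was Glyma07g15380 each time.

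These backgrounds depend on the scaling. Of the genes called in either direction, 89.8% were higher at 3-HAI than in dry seeds, and 55.8%, 72.4% and 97.8% after median-ratio, quantile and equal-total scaling. From 6-HAI to 12-HAI the share was 69.9%, against 55.7% after quantile and 89.4% after equal-total scaling, and from 12-HAI to 24-HAI it was 64.3%, against 49.9% after quantile scaling. Between dry seeds and 24-HAI it was 63.9%, against 53.6%, 50.1% and 80.3% in the same order as for the first interval. The median log2 change of expressed genes over that span was 0.39, and 0.05, 0.03 and 0.98 after those scalings.

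With 1 FPKM added to every value, the largest step of Glyma07g15380 relative to other genes came between 3-HAI and 6-HAI. Its values were 7.40 FPKM at 6-HAI against 1.40 FPKM at 3-HAI, a ratio of 5.27 and a log2 change of 1.81 on the log2(FPKM + 1) scale, which damps the change of low genes. Only 0.552% of expressed genes had a higher log2 change in that interval, where the median was -0.02. From dry seeds to 3-HAI its ratio was 50.5, which rests on the dry value of 0.0278 FPKM, and its log2 change was 1.23, exceeded by 6.18% of genes. With 1 FPKM added before the ratio was taken, this rise was no longer called. With a pseudocount of 0.1, the log2 change was 3.56 from dry seeds to 3-HAI and 2.32 from 3-HAI to 6-HAI. Which of these steps is larger thus depends on the pseudocount.

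After 6-HAI the steps of Glyma07g15380 were smaller as ratios. The ratio was 1.24 for 12-HAI over 6-HAI and 2.11 for 24-HAI over 12-HAI, under the limit of 2.4. As a difference the last step was the largest, 10.2 FPKM or 52.8% of the whole difference between 24-HAI and dry seeds, but this interval was also the longest. Per hour, the gene gained 0.459 FPKM up to 3-HAI, 2.00 FPKM from 3-HAI to 6-HAI, 0.295 FPKM from 6-HAI to 12-HAI and 0.852 FPKM from 12-HAI to 24-HAI. Between the ends of the series its log2 change was 4.31, exceeded by 1.87% of expressed genes.

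Neither of the other ACS genes passed the limit in any of these comparisons. Glyma09g28000 had 0.968 times its dry value at 3-HAI, then 1.47 times the 3-HAI value at 6-HAI and 1.19 times the 6-HAI value at 12-HAI. The step from dry seeds to 3-HAI, a log2 change of -0.04, was 0.21 after equal-total scaling and so has no set direction. At 24-HAI Glyma09g28000 had 0.662 times its value at 12-HAI, a log2 change of -0.52, and 23.98% of expressed genes had a lower change. Over the whole span its log2 change was 0.14, and turned to -0.24 after median-ratio and to -0.29 after quantile scaling, so no direction can be given for it.

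Glyma16g32860 had 1.87 times its dry value at 3-HAI, a log2 change of 0.71 that 19.4% of expressed genes exceeded. It then stood at 0.686 times the 3-HAI value at 6-HAI, at 0.955 times the 6-HAI value at 12-HAI, and at 0.520 times the 12-HAI value at 24-HAI. The step from 6-HAI to 12-HAI, a log2 change of -0.05, was 0.23 after equal-total scaling and so has no set direction. From dry seeds to 24-HAI the log2 change was -0.45, under the limit. It was -1.39 after quantile scaling, where the decrease was called, and 0.09 after equal-total scaling, so its direction over the whole span also turns with the scaling.

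**Figure D3:**
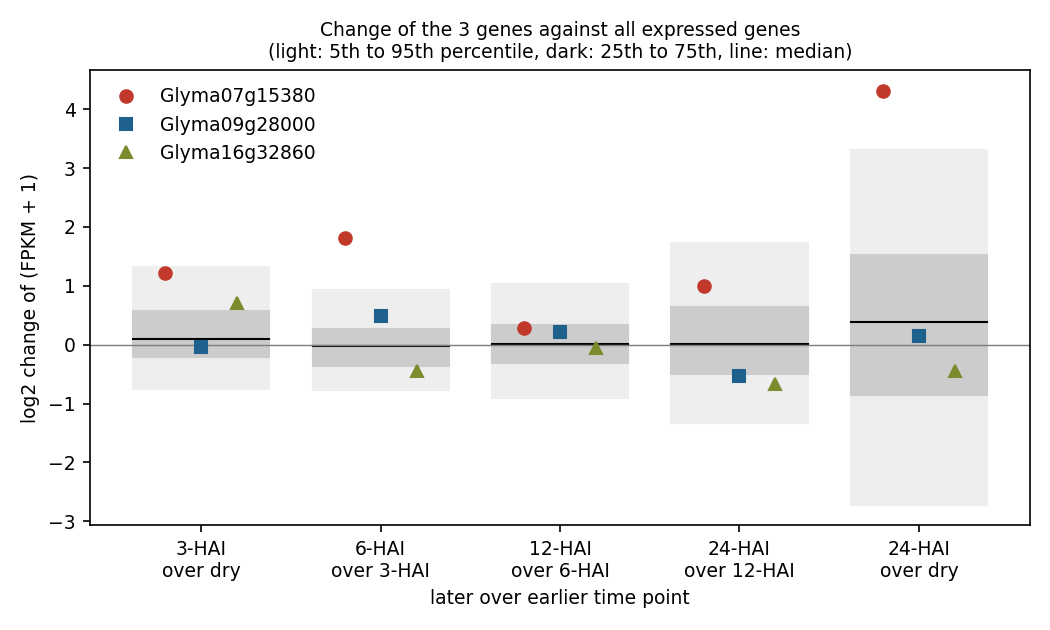
Log2 change of (FPKM + 1) of the 3 ACC synthase genes (points) for each later over earlier time point, with the 5th to 95th percentile (light bar), 25th to 75th percentile (dark bar) and median (line) of the 33358 expressed genes. Glyma07g15380 lies above the light bar between 3-HAI and 6-HAI (1.81) and over the whole span (4.31), and the other genes lie inside the light bars throughout.

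ACC oxidase, the enzyme after ACC synthase, was represented by 7 genes, chosen with earlier results of these data in view, some of them for their late rise, so their direction is not independent of that choice. Between dry seeds and 24-HAI, 1 of 3 ACS and 7 of 7 ACO genes were called higher, beside 38.5% of all expressed genes. The median log2 change was 0.14 for ACS and 4.16 for ACO, beside 0.39 for all expressed genes. The ACS genes were called higher in 1, 1, 0 and 0 cases over the 4 successive intervals, and the ACO genes in 1, 4, 4 and 5 cases. Of all expressed genes, 11.5%, 6.01%, 7.53% and 16.4% were called higher in these intervals. In dry seeds 2 of the 3 ACS genes and 0 of the 7 ACO genes were expressed. At 24-HAI all 3 and all 7 were, although Glyma16g32860 fell to 0.977 FPKM there, under the limit, after quantile scaling.

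The highest values of 4 of the 7 ACO genes lay above those of all 3 ACS genes, and those of Glyma02g43560 and Glyma14g05390 lay below them. Glyma06g12340 had FPKM values of 0.455 (dry), 0.305 (3-HAI), 2.61 (6-HAI), 23.4 (12-HAI) and 178 (24-HAI). The oxidase gene highest at 6-HAI and 12-HAI was Glyma17g01330, with 23.0 and 59.8 FPKM at these time points and 34.2 FPKM at 24-HAI. At 24-HAI, Glyma15g11930 and Glyma09g01110 had 50.4 and 55.3 FPKM, Glyma07g15480 had 10.5 FPKM, and Glyma02g43560 and Glyma14g05390 had 2.65 and 3.15 FPKM. The sum of the 3 ACS genes was 8.16, 11.7, 18.6, 21.7 and 27.2 FPKM over the 5 time points, against 1.70, 5.40, 30.9, 104 and 334 FPKM for the 7 ACO genes. The ACO sum was thus 0.208 times the ACS sum in dry seeds and 12.3 times at 24-HAI, and the dry ratio was 0.366 after quantile scaling. Some of the ACO genes were chosen for their late rise, so the rise of this ratio is not independent of that choice. It also sets 7 genes against 3, and Glyma06g12340 alone had 178 of the 334 FPKM at 24-HAI.

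The timing of Glyma07g15380 was set beside these ACO genes, some of which were chosen for their late rise. The other ACS genes were above 1 FPKM already in dry seeds (5.39 and 2.74 FPKM). Glyma07g15380 first reached 1 FPKM at 3-HAI, as did the oxidase gene Glyma17g01330. A further 3 ACO genes (Glyma06g12340, Glyma15g11930 and Glyma07g15480) did so at 6-HAI, Glyma09g01110 at 12-HAI, and Glyma02g43560 and Glyma14g05390 at 24-HAI. At 6-HAI Glyma07g15380 stood at 38.2% of its highest value, near the 36.7% of Glyma07g15480 and the 38.5% of Glyma17g01330, while the other 5 ACO genes were between 0.0998% and 6.16% of theirs.

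**Figure D4:**
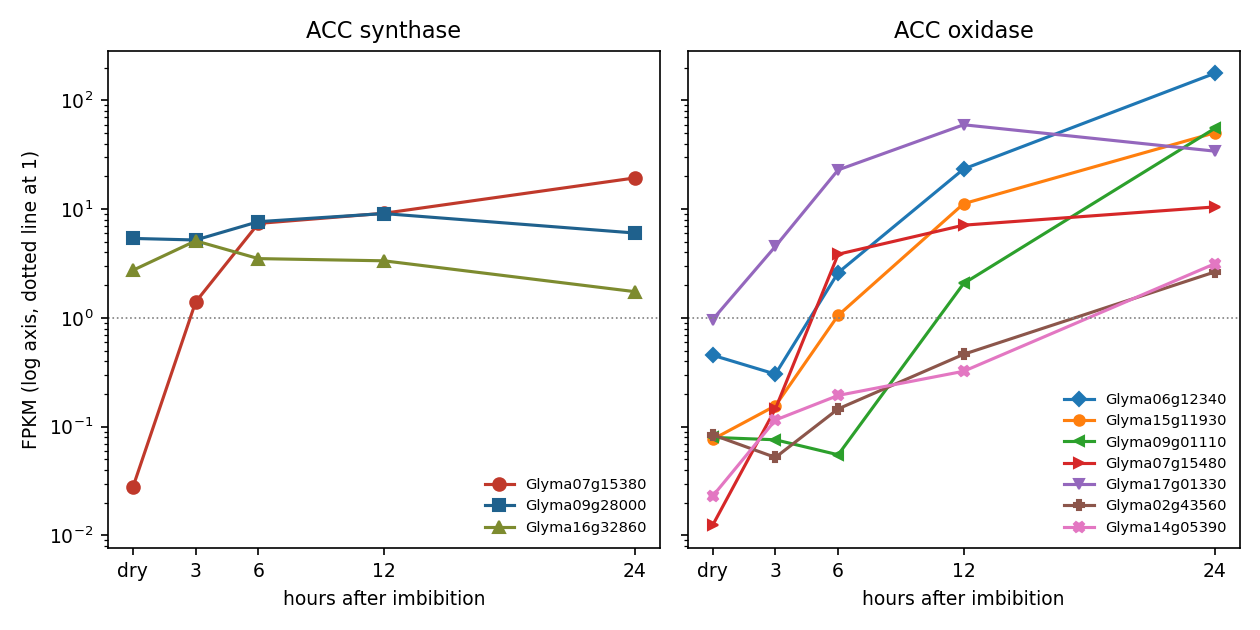
FPKM on a log axis against hours after imbibition for the 3 ACC synthase genes (left) and 7 ACC oxidase genes (right), 1 pooled value per time point. In dry seeds Glyma09g28000 and Glyma16g32860 are at 5.39 and 2.74 FPKM while all 7 oxidase genes are under 1 FPKM, and at 24-HAI the oxidase genes span 2.65 to 178 FPKM.

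Transcripts of both ETR1 genes were measured in dry axes. The ETR1 receptor genes Glyma12g37050 and Glyma09g00490 had 70.3 and 19.3 FPKM there. The values of Glyma12g37050 at the later time points were 64.2, 62.8, 83.8 and 43.6 FPKM, and those of Glyma09g00490 were 10.9, 17.2, 14.6 and 10.3 FPKM. Like the ACS gene Glyma09g28000, both varied less than 2.4-fold over the series before any scaling. A further receptor gene, Glyma10g33240, had 0.745 FPKM in dry seeds and 11.9, 22.2, 22.3 and 14.7 FPKM at the later time points. It resembled Glyma07g15380 in being under 1 FPKM in dry seeds alone, but was lower at 24-HAI than at 12-HAI, where Glyma07g15380 was higher. The ethylene response factor Glyma02g08835, a transcription factor of the far end of the pathway, had 72.9, 237, 87.9, 55.4 and 7.56 FPKM in the order of the time points. Its highest value came at 3-HAI, as did that of Glyma16g32860, and it stood at 3.19% of it by 24-HAI, against 34.1% for Glyma16g32860. These 4 genes are those that the text of the study singles out, in part for how they changed.

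A synthase and an oxidase gene lie close together on chromosome 7. The oxidase gene Glyma07g15480 (chr7:15287171-15289649, plus strand) starts 58.8 kb beyond the end of Glyma07g15380, with 9 genes between them. It had FPKM values of 0.0124 (dry), 0.146 (3-HAI), 3.86 (6-HAI), 7.13 (12-HAI) and 10.5 (24-HAI), so that both genes were near 0 in dry seeds and higher at each successive time point. Of the 9 genes between them, 8 were expressed, 3 were called higher at 24-HAI than in dry seeds (Glyma07g15400, Glyma07g15430 and Glyma07g15440) and 1 lower. Over all expressed genes, 38.5% were called higher and 21.7% lower. Glyma07g15440 and Glyma07g15450, 2 of the 9, also rose at each successive time point, although Glyma07g15450 stayed under 1 FPKM. Of all expressed genes, 18.3% rose at each successive time point. The log2 changes of the 9 genes ran from -2.83 to 1.79 with a median of 0.37. The change of Glyma07g15380 was 4.31 and that of Glyma07g15480 was 3.50. No other gene of the ACO list lay within 100 genes of an ACS gene.

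The genes directly beside Glyma07g15380 differed from it in level. Glyma07g15360 and Glyma07g15350, on the side of lower coordinates, had 8.07 and 4.46 FPKM at 24-HAI, against 1.48 and 5.60 FPKM in dry seeds. On the other side, Glyma07g15390 and Glyma07g15400 had 90.3 and 16.0 FPKM at 24-HAI, against 79.7 and 5.71 FPKM in dry seeds.

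Beside Glyma09g28000, Glyma09g27965 and Glyma09g28010 reached at most 0.00261 and 0.0168 FPKM. Glyma09g27980 lay between 5.62 and 7.53 FPKM, within the range of Glyma09g28000 (5.21 to 9.12 FPKM), and Glyma09g28020 between 0.724 and 1.25 FPKM. Beside Glyma16g32860, Glyma16g32850 and Glyma16g32871 were listed at 0 throughout. The next genes out, Glyma16g32840 and Glyma16g32880, were called higher at 24-HAI (4.34 and 1.22 FPKM) than in dry seeds (0.709 and 0.3004 FPKM), whereas Glyma16g32860 had 1.75 FPKM at 24-HAI against 2.74 FPKM in dry seeds. None of the ACS genes overlapped another entry of the table or shared all 5 values with another gene.

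In a window of 20 genes on each side, chosen after the values had been seen, 13 of 32 expressed genes (40.6%) around Glyma07g15380 were called higher at 24-HAI than in dry seeds and 4 lower. Around Glyma09g28000 the counts were 10 of 23 (43.5%) higher and 4 lower. Around Glyma16g32860, 19 of 25 expressed genes (76%) were called higher and 0 lower, while Glyma16g32860 itself was not called, beside 38.5% higher and 21.7% lower over all expressed genes. Neighbours are not independent of each other, and in each window some genes share all their values but were counted separately. Glyma16g32931 and Glyma16g32940, both called higher, are such a pair, as are Glyma09g28160 and Glyma09g28170, both called lower. The share of 76% was not tested.

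**Figure D5:**
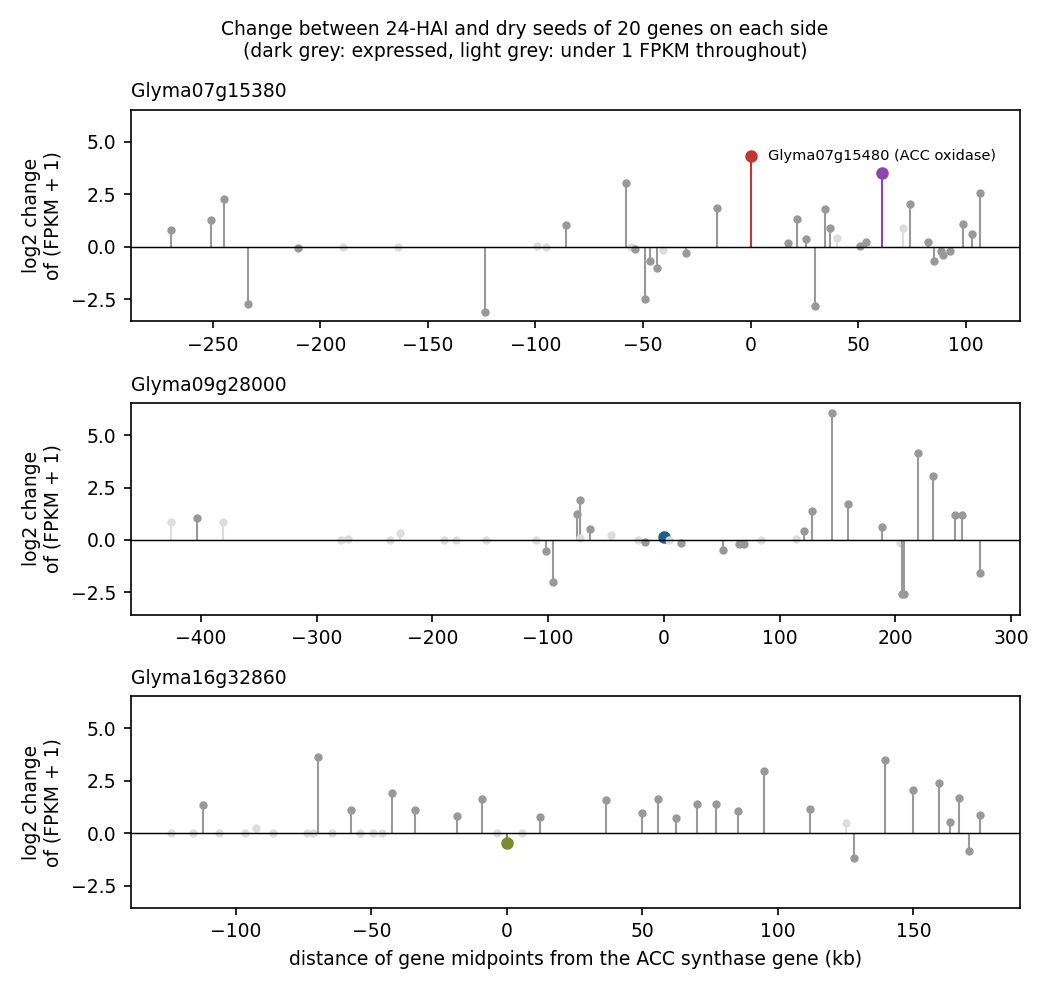
Log2 change of (FPKM + 1) at 24-HAI over dry seeds (vertical axis) of the 20 genes on each side of each ACC synthase gene (coloured point at 0), against the distance between gene midpoints in kb. In the top panel the oxidase gene Glyma07g15480 (3.50) stands near Glyma07g15380 (4.31), and in the bottom panel 19 of 25 expressed neighbours of Glyma16g32860 are called higher.

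Genes with similar profiles were sought by the Euclidean distance of log2(FPKM + 1) over the 5 time points, which keeps both level and shape, among the 33357 other expressed genes. The nearest to Glyma07g15380 were Glyma12g04290 (distance 0.52), Glyma07g08400 (0.55) and Glyma06g17850 (0.55). Glyma12g04290 had FPKM values of 0.0874 (dry), 0.986 (3-HAI), 5.26 (6-HAI), 9.93 (12-HAI) and 18.9 (24-HAI). Only 53 genes lay within a distance of 1 of Glyma07g15380, against 1391 for Glyma09g28000 and 926 for Glyma16g32860. The nearest oxidase gene, Glyma07g15480, was at rank 531 with a distance of 1.60.

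The nearest to Glyma09g28000 were Glyma04g43670 and Glyma04g43720 (both 0.21), which share all their values and so count as 1 profile, and Glyma10g40140 (0.23). For Glyma16g32860 they were Glyma16g00905 (0.17), Glyma20g22470 (0.18) and Glyma16g08170 (0.24), of which Glyma16g00905 had 3.16, 5.003, 3.45, 3.12 and 1.72 FPKM in the order of the time points. The ACS genes were farther from each other, with a distance of 2.19 between Glyma09g28000 and Glyma16g32860, 3.34 between Glyma07g15380 and Glyma09g28000, and 3.997 between Glyma07g15380 and Glyma16g32860. With 5 time points many unrelated genes resemble one another, and none of the nearest genes was the same when shape alone or a correlation was used.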

How the data were processed

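Reads of the embryonic axes were processed by the authors, who removed the first 10 bases (Trimmomatic 0.30), mapped reads to version 1.1 of the G. max genome (TopHat2 2.0.9, Bowtie2 2.1.0, both from the submitters' processing notes) and estimated FPKM with Cufflinks 2.1.1. The deposited FPKM are 1 value per gene and time point, and how replicates were combined is not stated. Reads shared by close paralogs could not be traced, so values of similar ACS genes are uncertain to that extent. Of 54801 entries, 647 genes had 2, of which the one reaching the larger FPKM was kept. Positions are those of the table (lowest start 1). None of the identifiers (0) matched the RefSeq gene table, so no sequence is shown, and gene names are those of the study.

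Ratios, log2 changes (pseudocount 1), scores and distances were computed in Python (3.11.15) using pandas (2.3.3) over numpy (2.4.6), and plotted in matplotlib (3.10.9). The code for calls, scores and scalings was tested on simulated data. Members and lists were chosen with earlier results of these data known. Genes named are the members, the oxidase, receptor, response factor and ABI3 genes given above, the 3 nearest profiles and 2 neighbours on each side, with those between Glyma07g15380 and Glyma07g15480 named after their values were seen. The alternatives were other pseudocounts, fold and expression limits, no minimum FPKM, 3 scalings, other scales of the score, other measures of likeness, and every entry.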

Additional observations from a re-analysis of the deposited data

How the results depend on the processing

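Of 285 values computed under an alternative, 249 kept their call or stayed within 1.5 times, 36 moved and 0 called changes turned. Some could not have moved, as a stricter fold limit cannot add a call where none was made. Turning was possible only for log2 changes of called genes, here Glyma07g15380. With an expression limit of 2 FPKM, 2 of the 3 genes were expressed at 3-HAI and at 24-HAI, in place of 3. These changed counts fall on the bound of 1.5 times and were not counted as moved. With a pseudocount of 1, 0 of the 3 genes were called higher from dry seeds to 3-HAI, in place of 1. From 12-HAI to 24-HAI, 1 gene (Glyma07g15380) was called higher, in place of 0, with a 2-fold limit and after quantile scaling. Quantile scaling also called 1 gene (Glyma16g32860) lower, in place of 0, from 12-HAI to 24-HAI and from dry seeds to 24-HAI. Over the whole span, 24-HAI over dry, the log2 change of Glyma07g15380 (4.31) was 7.25 with a pseudocount of 0.1, that of Glyma09g28000 (0.14) was -0.24, -0.29 and 0.81 after median-ratio, quantile and equal-total scaling, and that of Glyma16g32860 (-0.45) was -1.39 and 0.094 after quantile and equal-total scaling. Scalings of sums and ratios were added after seeing the data. Under them the 3-gene sum at 24-HAI over dry (3.33) was 2.44 (median ratio), 2.67 (quantile) and 5.77 (equal totals). That of Glyma09g28000 and Glyma16g32860 (0.957) was 0.702 (median ratio), 0.579 (quantile) and 1.66 (equal totals). The percent of expressed genes called moved past 1.5 times as follows. From dry seeds to 3-HAI, 11.5% higher became 6.76% (median ratio) and 4.97% (quantile), and 1.32% lower became 5.36% (median ratio) and 0.381% (equal totals). From 3-HAI to 6-HAI, 6.01% higher became 3.92% (quantile) and 0.698% lower became 0.231% (equal totals). From 6-HAI to 12-HAI, 7.53% higher became 12.4% and 3.24% lower became 1.47% (equal totals). From 12-HAI to 24-HAI, 9.13% lower became 14.4% (quantile), and between the ends 21.7% lower became 12.2% (equal totals). The causes were not tested. No paired analysis was possible because the table holds 1 pooled value per time point, and for the same reason no replicate could be left out. The table holds no read counts per gene.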

Other observations

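Judged by shape alone (log2(FPKM + 1) centred on its own mean), the 3 genes nearest to Glyma09g28000 on chromosome 9 were Glyma01g03870, Glyma07g15390 and Glyma07g03646. Glyma07g15390 is the gene next to the ACC synthase gene Glyma07g15380, and had FPKM of 79.7 (dry), 86.4 (3-HAI), 116 (6-HAI), 124 (12-HAI) and 90.3 (24-HAI). A correlation over 0.95 across the 5 time points, given as a description, was reached with Glyma07g15380 by 2876 of the other expressed genes (8.62%), with Glyma16g32860 by 996 (2.99%) and with Glyma09g28000 by 42 (0.126%).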
